A study of Mus musculus with 6 samples.

Results

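The Polycomb subunits examined here are 10 mouse genes chosen by name, 5 of Polycomb repressive complex 2 (PRC2: Eed, Ezh1, Ezh2, Suz12 and Jarid2) and 5 of Polycomb repressive complex 1 (PRC1: Ring1, Rnf2, Pcgf1, Pcgf6 and Rybp). All 10 were found among the 27179 genes of the count files, and all 10 had enough counts to be tested. The knockout group was germinal vesicle oocytes, fully grown oocytes still arrested in the first meiotic prophase, in which Zp3-Cre, active in growing oocytes, had removed the floxed exon 5 of Prdm10, a zinc finger gene of the PRDM family. The wildtype group was oocytes of the same stage. No source used here says whether the wildtype mice carried the floxed allele or the Cre, or how old the mice were. There were 3 libraries of each genotype, each from about 10 pooled oocytes, and the comparison asked how loss of maternal Prdm10 alters the oocyte's messenger RNA. In pools of whole cells, fewer cells that express a gene and less RNA per cell cannot be told apart.

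Polycomb complexes keep genes silent through marks on histones. PRC2 methylates histone H3 at lysine 27: Ezh2 or its paralog Ezh1 is the enzyme, Suz12 and Eed form the core with it, and Eed binds the finished mark and stimulates the enzyme. PRC1 attaches ubiquitin to histone H2A through the paralogous ligases Ring1 and Rnf2, and different Pcgf proteins and Rybp define its variants. In mouse oocytes, PRC2 lays down a maternal methylation mark that silences the maternal copy of a small group of genes in the embryo, and Ring1 and Rnf2 are needed together for a normal egg.

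Eed fell in the knockout oocytes and was the only 1 of the 10 subunits to pass the test (adjusted p under 0.05 over all tested genes). Because Polycomb complexes gather at stretches rich in CG, the 300 bases around the start of Eed (chr7:89980927-89981226, minus strand) are shown beside those of its core partner Suz12 (chr11:79992856-79993155, plus strand) and of Hoxd1 (chr2:74762730-74763029, plus strand), the Hox gene with the largest increase below. Each is written 5′ to 3′ from 250 bases before the start to 50 after it, from RefSeq on GRCm38.p6, and CG pairs are in capitals.
Eed: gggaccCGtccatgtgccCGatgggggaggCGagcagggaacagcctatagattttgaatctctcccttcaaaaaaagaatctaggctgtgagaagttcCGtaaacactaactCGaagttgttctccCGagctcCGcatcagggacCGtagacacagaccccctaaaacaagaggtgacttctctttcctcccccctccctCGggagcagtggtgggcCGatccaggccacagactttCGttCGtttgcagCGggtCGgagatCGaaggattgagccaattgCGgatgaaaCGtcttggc
Suz12: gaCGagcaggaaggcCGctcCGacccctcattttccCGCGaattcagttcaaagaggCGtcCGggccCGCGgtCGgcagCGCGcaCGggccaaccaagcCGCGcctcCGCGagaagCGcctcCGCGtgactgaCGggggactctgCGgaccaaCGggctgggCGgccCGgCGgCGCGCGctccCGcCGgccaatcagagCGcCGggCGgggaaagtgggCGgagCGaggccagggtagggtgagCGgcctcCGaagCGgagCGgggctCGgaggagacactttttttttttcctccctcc
Hoxd1: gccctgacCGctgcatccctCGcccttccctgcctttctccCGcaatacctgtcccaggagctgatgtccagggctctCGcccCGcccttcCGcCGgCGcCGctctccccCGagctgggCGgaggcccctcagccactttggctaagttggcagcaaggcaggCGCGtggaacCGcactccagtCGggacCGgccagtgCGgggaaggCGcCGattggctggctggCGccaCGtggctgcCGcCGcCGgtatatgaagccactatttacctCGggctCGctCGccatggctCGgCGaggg
The Eed window held 17 CG pairs, the Suz12 window 41 and the Hoxd1 window 29, where the median of 32851 such windows was 7. As many CG pairs as in Eed occurred in 31.4% of all windows, as many as in Suz12 in 3.46% and as many as in Hoxd1 in 12.9%. Windows were listed for 8 of the 10 subunits, with 17 to 41 CG pairs each, so Eed had the fewest of them. The 24 windows listed for Hox genes had a median of 14.5 CG pairs, with a range of 4 to 45. The other Hox genes that rose had 6 (Hoxd8), 14 (Hoxb4), 20 (Hoxd9), 37 (Hoxd13), and 12 and 21 CG pairs (Hoxa10). On either strand, the CCAAT box (CCAAT) was present in all 3 printed windows and in 37.4% of all windows, the ETS motif (CCGGAAG) in none of the 3 and in 8.86%, and an E2F-like motif (TTNNCGC) in the Suz12 window and in 20.2%.

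Library totals ran from 22492228 to 38831227 counts. The targeted gene Prdm10 was at 2.80, 3.82 and 3.05 counts-per-million units (CPM, after scaling of each library) in the knockout libraries, against 10.4, 23.1 and 23.0 CPM in the wildtype libraries (log2 fold change -2.54, adjusted p = 0.00436, edgeR quasi-likelihood test). Its counts cover the whole gene and not the deleted exon alone. Wildtype replicate 1 stood apart: its Spearman correlations with the other wildtype libraries across genes were 0.9758 and 0.9751, where those were 0.996 with each other and the knockout libraries at least 0.9947 with each other. For the 10 subunits, values are given with and without this library where a call depends on it. Several further Polycomb and Hox genes whose calls depend on it are only counted. Its level of Bmp15, an oocyte growth factor, was 2106 CPM, where the other wildtype libraries had 5606 and 5370 CPM. All 8 oocyte markers (Zp1, Zp2, Zp3, Gdf9, Bmp15, Ddx4, Oosp1 and Figla) were detected in every library, with a summed level of 21420 to 22930 CPM in knockout and 18550 to 22490 CPM in wildtype libraries, and 0 of them passed the test (edgeR, 0 with an unadjusted p under 0.05; 0 with DESeq2). The 12 markers of granulosa and cumulus cells summed to 77.2 to 88.9 CPM in knockout and 85.0 to 93.7 CPM in wildtype libraries, with 0 called (edgeR, 3 with an unadjusted p under 0.05; 0 with DESeq2) and Ptx3 at 0 throughout. The 8 of theca and stroma summed to 4.71 to 7.79 CPM in knockout and 4.07 to 9.87 CPM in wildtype libraries, with 0 of 3 tested called (edgeR, 1 with an unadjusted p under 0.05; 0 with DESeq2). The 8 of blood, immune and endothelial cells summed to 116.9 to 120.9 CPM in knockout and 36.5 to 82.2 CPM in wildtype libraries, most of it Pecam1, with Cd68 called higher (edgeR) and Hba-a1 and Cdh5 at 0 in every library; its part in the results was not tested. Without wildtype replicate 1, Bmp15 and Cyp19a1 were called lower and Has2 and Pecam1 higher, besides Cd68 (edgeR).

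Among the PRC2 subunits, Eed (Entrez 13626, GRCm38 chromosome 7, 89954654 to 89980976, minus strand) had 234, 262 and 259 CPM in the knockout libraries, against 330, 439 and 431 CPM in the wildtype libraries. The genotypes did not overlap, and wildtype replicate 1 was the lowest of the wildtype ones. Eed averaged 252 ± 15.6 CPM in knockout and 400 ± 60.7 CPM in wildtype pools (SD, n = 3 each), 1.59-fold lower in knockout (log2 fold change -0.67, SE 0.143, 95% interval -0.999 to -0.34, adjusted p = 0.0270, edgeR). Over all 14957 tested genes, 5.34% passed the test in the downward direction and 11.2% in either. Without wildtype replicate 1 the log2 fold change of Eed was -0.79 (adjusted p = 5.17e-06, edgeR). The call did not survive the loss of any other single library: the adjusted p was 0.0932 to 0.135 when 1 knockout library was dropped, and 0.0762 or 0.0784 when wildtype replicate 2 or 3 was, with log2 fold changes between -0.72 and -0.60 in these 5 fits (edgeR). The DESeq2 Wald test gave an adjusted p of 0.00119 and limma-voom 0.0292. A total of 261 bases of the exons of Eed lie opposite an annotated antisense gene, E230029C05Rik, which had 0 counts in every library.

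Suz12 (Entrez 52615, chromosome 11, 79993106 to 80034123, plus strand), the scaffold that holds PRC2 together, had 167, 185 and 189 CPM in knockout libraries, against 277, 207 and 207 CPM in wildtype libraries. The genotypes did not overlap, but wildtype replicate 1 was well above the other wildtype libraries, which lay close to the highest knockout library. The log2 fold change was -0.36 (SE 0.148, 95% interval -0.70 to -0.01, adjusted p = 0.160, edgeR) and did not pass with all 6 libraries. Without wildtype replicate 1 it was smaller, -0.20, and passed (adjusted p = 0.0313, edgeR).

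Ezh2 (Entrez 14056, chromosome 6, 47530274 to 47595270, minus strand), the main methyltransferase of PRC2 in dividing cells, had 411, 427 and 443 CPM in knockout libraries, against 480, 447 and 449 CPM in wildtype libraries. The groups did not overlap but differed by little, at 427 ± 16.1 CPM in knockout and 459 ± 18.1 CPM in wildtype pools (SD, n = 3 each; log2 fold change -0.10, 95% interval -0.35 to 0.14, adjusted p = 0.549, edgeR). Its paralog Ezh1 (Entrez 14055, chromosome 11, 101191115 to 101226463, minus strand), a weaker methyltransferase, had 78.8, 82.1 and 87.5 CPM in knockout libraries, against 62.1, 104 and 101 CPM in wildtype libraries. Wildtype replicate 1 lay below all knockout libraries and wildtype replicates 2 and 3 above them. The log2 fold change of Ezh1 was accordingly -0.10 with all libraries (95% interval -0.56 to 0.35, adjusted p = 0.757, edgeR) and -0.31 without wildtype replicate 1 (adjusted p = 0.00478, edgeR), and it was 0.02 without wildtype replicate 2. Jarid2 (Entrez 16468, chromosome 13, 44730774 to 44921643, plus strand), an accessory subunit that helps bring PRC2 to its targets, had 133, 134 and 121 CPM in knockout libraries, against 120.5, 117 and 125 CPM in wildtype libraries. These overlapped (log2 fold change 0.10, 95% interval -0.15 to 0.35, adjusted p = 0.571, edgeR).

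**Figure D1:**
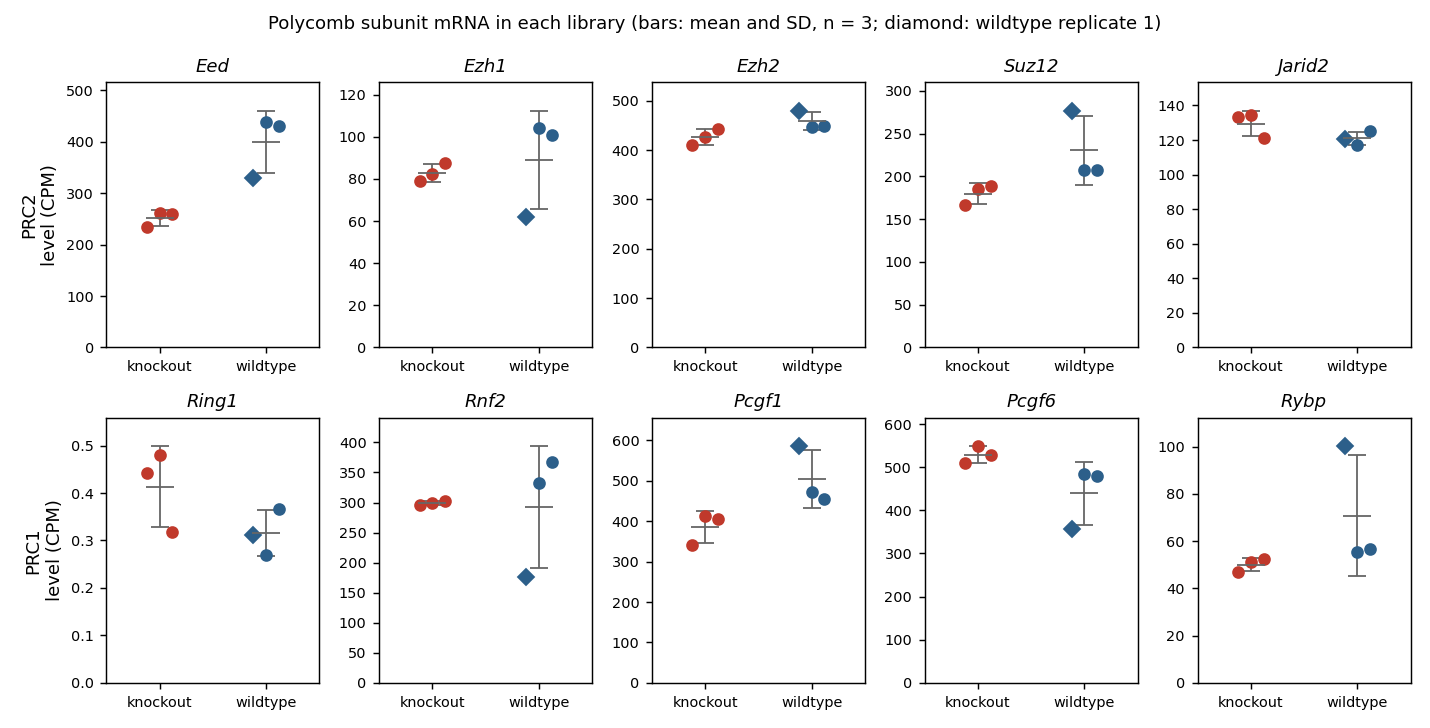
Level of each of the 10 subunits in CPM (vertical axis, from 0) in the 3 knockout libraries and the 3 wildtype libraries, with PRC2 in the upper and PRC1 in the lower row; points are libraries, the diamond is wildtype replicate 1, and bars are the mean and SD. Eed sits at 234 to 262 CPM in knockout and 330 to 439 CPM in wildtype libraries, and wildtype replicate 1 lies apart from the other wildtype libraries for most subunits, such as Rybp at 100.3 against 55.5 and 56.9 CPM.

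Of the PRC1 subunits 0 of 5 passed the test with all 6 libraries (edgeR; 1, Pcgf1, had an unadjusted p under 0.05, and 0 passed with DESeq2). The ligase Rnf2 (Entrez 19821, chromosome 1, 151469398 to 151500991, minus strand) had 296, 299 and 303 CPM in knockout libraries, against 177, 333 and 367 CPM in wildtype libraries. The knockout libraries fell inside the wide wildtype range, above wildtype replicate 1 and below the other wildtype libraries. Its log2 fold change was 0.04 with all libraries (95% interval -0.54 to 0.61, adjusted p = 0.938, edgeR) and -0.23 without wildtype replicate 1 (adjusted p = 0.0114, edgeR).

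Ring1 (Entrez 19763, chromosome 17, 34020792 to 34024680, minus strand), the paralogous ligase, was barely detected, at 15, 18 and 12 reads in knockout libraries, against 13, 7 and 8 reads in wildtype libraries. How multiply mapped reads were counted is not stated, so this low count is itself uncertain. It corresponds to 0.414 ± 0.0852 CPM in knockout and 0.316 ± 0.0483 CPM in wildtype pools (SD, n = 3 each). The genotypes overlapped, and the 95% interval of the log2 fold change, -0.41 to 1.19, spans a range too wide to show a difference at this depth (adjusted p = 0.480, edgeR).

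Pcgf1 (Entrez 69837, chromosome 6, 83077552 to 83080855, plus strand), the subunit that defines the variant PRC1 containing Kdm2b and Bcor, had 341, 414 and 404 CPM in knockout libraries, against 586, 473 and 454 CPM in wildtype libraries. The genotypes did not overlap (log2 fold change -0.38, SE 0.145, adjusted p = 0.128, edgeR; without wildtype replicate 1 -0.26, adjusted p = 0.0219). Pcgf6 (Entrez 71041, chromosome 19, 47033617 to 47050939, minus strand) defines the variant PRC1 that holds Mga and L3mbtl2 and silences germline genes in mouse embryonic stem cells. It had 509, 549 and 529 CPM in knockout libraries, against 356, 484 and 479 CPM in wildtype libraries. It was the 1 subunit whose knockout libraries all lay above the wildtype ones (log2 fold change 0.27, 95% interval -0.07 to 0.60, adjusted p = 0.267, edgeR; 0.13 and adjusted p = 0.0781 without wildtype replicate 1).

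Rybp (Entrez 56353, chromosome 6, 100228565 to 100287358, minus strand), which takes the place of a Cbx protein in variant PRC1, had 46.9, 51.0 and 52.4 CPM in knockout libraries, against 100.3, 55.5 and 56.9 CPM in wildtype libraries. Wildtype replicate 1 was far above the other wildtype libraries, and these lay just above the knockout libraries. The log2 fold change was -0.50 with all libraries (adjusted p = 0.199, edgeR) and -0.17 without wildtype replicate 1 (adjusted p = 0.119). Because no source says how multiply mapped reads were counted, reads of Rybp may be divided with an annotated copy, Rybp-ps, whose counts were between 52.7% and 55.7% of those of Rybp in knockout libraries and between 48.5% and 51.6% in wildtype libraries, so its level is uncertain.

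Taking the 10 subunits as a list, 1 fell, 0 rose and 9 did not pass, against the 11.2% of all genes that passed, so the count alone does not set them apart. The median log2 fold change was -0.10 over the 10 and 0.00 over all tested genes. The libraries of the genotypes did not overlap for 6 of the 10 (Eed, Ezh2, Suz12, Pcgf1 and Rybp lower, Pcgf6 higher), where 40.2% of all tested genes had no overlap. Without wildtype replicate 1, 5 of the 10 passed, all lower in knockout: Eed, Suz12, Ezh1, Rnf2 and Pcgf1. In that comparison 34.4% of 15104 tested genes passed, 17.7% of the tested genes being lower and 16.7% higher. With wildtype replicate 2 or 3 or any 1 knockout library left out, 0 of the 10 passed (edgeR, with 1 to 4 at an unadjusted p under 0.05). A summed level over the PRC2 subunits of 1024 to 1099 CPM in knockout libraries stood against 1269 to 1314 CPM in wildtype libraries, and the PRC1 subunits summed to 1193 to 1313 CPM in knockout and 1219 to 1357 CPM in wildtype libraries, which overlapped. The PRC2 sum includes Eed, which differed most in CPM among these subunits, at 252 CPM in knockout and 400 CPM in wildtype pools. The sums were not tested and do not show a fall of PRC2 as a whole.

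**Figure D2:**
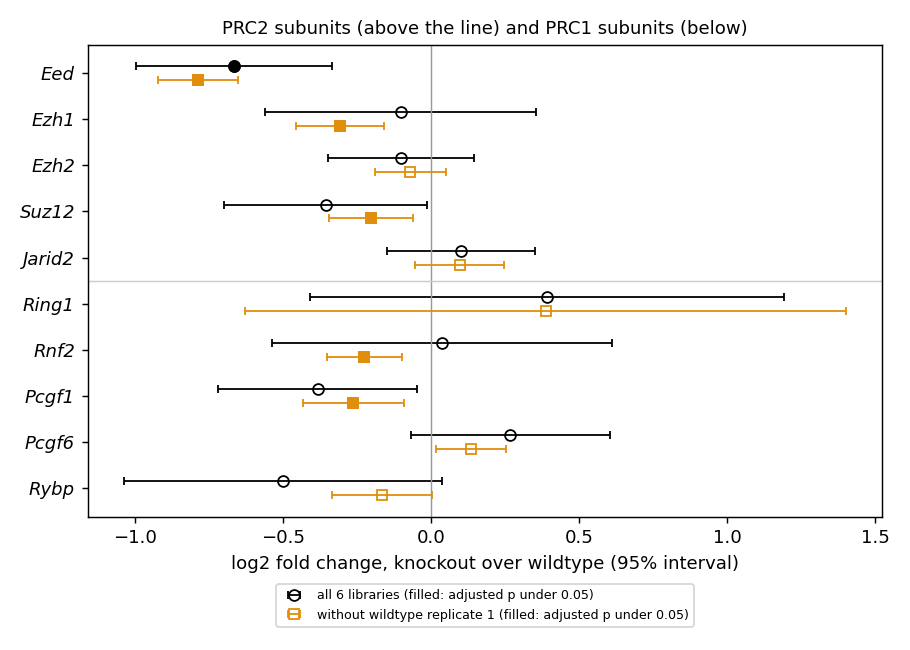
Fitted log2 fold change of each subunit, knockout over wildtype (horizontal axis), with its 95% interval, from all 6 libraries (circles) and without wildtype replicate 1 (squares); filled symbols have an adjusted p under 0.05. With all libraries only Eed, at -0.67, is filled, and without wildtype replicate 1 Eed, Ezh1, Suz12, Rnf2 and Pcgf1 are filled, all below 0.

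To compare levels between genes, CPM were divided by the length of each gene's merged exons in kilobases, giving RPKM. By this length Pcgf1 had the highest level, 234 ± 24.0 RPKM in knockout and 306 ± 43.2 RPKM in wildtype oocytes (SD, n = 3 each). In knockout libraries it was followed by Pcgf6 (105 ± 3.97 RPKM), Rnf2 (72.6 ± 0.873), Eed (65.8 ± 4.07), Ezh2 (64.0 ± 2.41), Suz12 (36.4 ± 2.38), Jarid2 (13.3 ± 0.765), Ezh1 (11.1 ± 0.591), Rybp (10.6 ± 0.604) and Ring1 (0.128 ± 0.0263). There the library ranges of neighbours overlapped only for Eed with Ezh2 and Ezh1 with Rybp. In wildtype libraries Eed came second after Pcgf1, at 104 ± 15.8 RPKM, followed by Pcgf6 (87.4 ± 14.5), Rnf2 (70.8 ± 24.6), Ezh2 (68.7 ± 2.71), Suz12 (46.6 ± 8.13), Rybp (14.95 ± 5.37), Jarid2 (12.4 ± 0.411), Ezh1 (11.97 ± 3.13) and Ring1 (0.0974 ± 0.0149). There the ranges of Eed, Pcgf6, Rnf2 and Ezh2 overlapped from each to the next, as did those of Rybp, Jarid2 and Ezh1. Eed thus stood 4th of the 10 per length in knockout and 2nd in wildtype oocytes; by the longest transcript the order was also 4th and 2nd, and by the coding length 5th and 3rd. By the coding length Pcgf6 and Pcgf1 were level in knockout libraries, at 499 ± 18.9 and 497 ± 50.9 RPKM.

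Within each pair of paralogs 1 enzyme held most of the counted reads per length in both genotypes. Ezh1 made up 14.7%, 14.7% and 15.1% of the summed RPKM of Ezh1 and Ezh2 in the knockout libraries, against 10.4%, 17.3% and 16.8% in the wildtype libraries. The knockout values lay together between wildtype replicate 1 and the other wildtype libraries, with averages of 14.8 ± 0.205% in knockout and 14.8 ± 3.82% in wildtype pools (SD, n = 3 each). Ring1 made up 0.176 ± 0.0375% of the sum of Ring1 and Rnf2 in knockout and 0.151 ± 0.0644% in wildtype oocytes. The share of Ring1 carries the uncertainty of its count. No test was made of these shares.

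**Figure D3:**
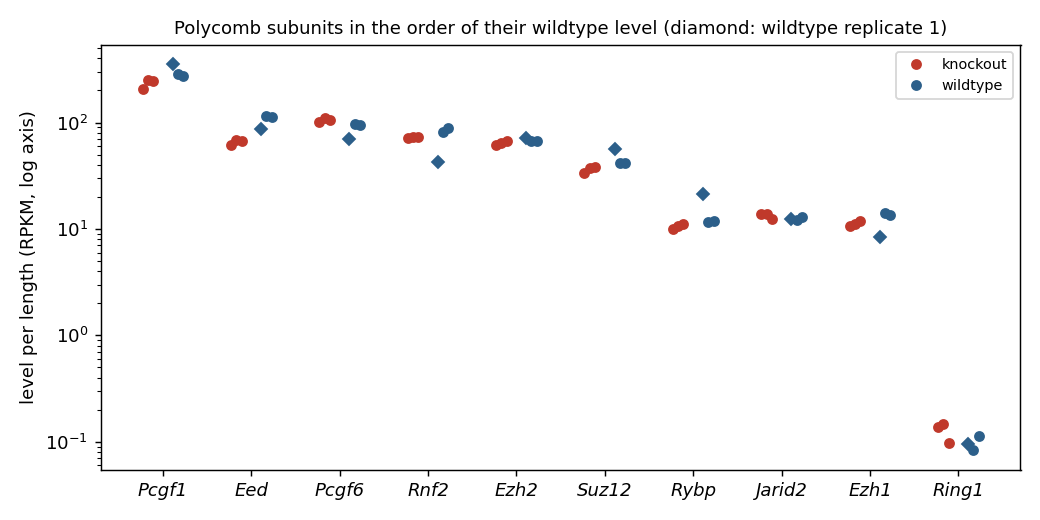
Level of the 10 subunits per length of merged exons in RPKM (log axis) in each knockout and wildtype library, in the order of the wildtype means; the diamond is wildtype replicate 1. Pcgf1 is highest in both genotypes, Ring1 lies far below the rest at 0.128 RPKM in knockout and 0.0974 RPKM in wildtype oocytes, and Eed lies at the level of Ezh2 in knockout libraries, while its wildtype mean lies above that of Pcgf6 with overlapping libraries.

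The genes whose levels followed that of Eed most closely over the 6 libraries were sought among 9857 other tested genes averaging at least 5 CPM. The Pearson correlations of log2 CPM were 0.999 for Arhgap18, which encodes a GTPase activator, 0.998 for Lman2l, a lectin of the secretory pathway, and 0.997 for each of Gm4961, Nipsnap2 and Gpr35. The points share the genotype groups and wildtype replicate 1, which was intermediate for all of these genes. Arhgap18 had 13.03, 14.7 and 14.5 CPM in knockout libraries, against 18.9, 24.1 and 24.5 CPM in wildtype libraries.

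Among 53 further Polycomb genes, 51 could be tested, of which 3 rose and 2 fell and 46 did not pass, a share near the 11.2% of all genes. Their median log2 fold change was -0.03. The 10 other PRC2 subunits and regulators had 1 that fell, where 5.34% of all tested genes did. DESeq2 called 2 lower, Lcor being the other, where it called 1258 of 16358 genes lower in all. Lcor, named after its values were seen, did not pass with edgeR (log2 fold change -0.59, adjusted p = 0.0587). It passed without wildtype replicate 1 (edgeR). The gene that fell was Aebp2 (Entrez 11569, chromosome 6, 140622454 to 140678472), a zinc finger subunit found in the same form of PRC2 as Jarid2. It had 55.0, 53.1 and 50.2 CPM in knockout libraries, against 82.0, 83.2 and 85.5 CPM in wildtype libraries. All wildtype libraries, replicate 1 included, lay close together and well above the knockout libraries (log2 fold change -0.66, SE 0.108, adjusted p = 0.0106, edgeR). Dropping 1 wildtype library left the call in place, with adjusted p of 4.1e-05 to 0.0419, while dropping 1 knockout library ended it, with 0.0559 to 0.0760.

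Ezhip, a protein of germ cells that inhibits PRC2, had 1597 ± 104 CPM in knockout and 1938 ± 292 CPM in wildtype pools (SD, n = 3 each; log2 fold change -0.28, adjusted p = 0.242, edgeR). Wildtype replicate 1, at 1601 CPM, lay within the knockout range, and without it the log2 fold change of Ezhip was -0.40 (adjusted p = 0.000422, edgeR). It was named after its values were seen. The histone-binding subunits Rbbp4 and Rbbp7, shared with other chromatin complexes, had log2 fold changes of 0.17 and 0.34 (adjusted p = 0.566 and 0.317, edgeR).

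Of the 12 other subunits of canonical PRC1 10 were tested and 1 rose, where 5.87% of all tested genes rose. This was Cbx7 (Entrez 52609, chromosome 15, 79915804 to 79971143), a chromodomain protein that reads the methyl mark of PRC2. It had 17.8, 14.4 and 11.8 CPM in knockout libraries, against 4.42, 4.82 and 4.53 CPM in wildtype libraries. The groups were well apart, and the level was 3.20-fold higher in knockout oocytes (log2 fold change 1.68, SE 0.186, adjusted p = 0.00280, edgeR), with adjusted p between 6.37e-05 and 0.0246 with any 1 library left out. The exons of Cbx7 share 100 bases with Apobec3 on the other strand. Cbx2, another reader of the mark, was at 80.2 ± 12.9 CPM in knockout and 81.7 ± 10.3 CPM in wildtype pools (SD, n = 3 each; log2 fold change -0.03, adjusted p = 0.927, edgeR).

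Among 20 subunits of variant PRC1 2 rose, against the same 5.87%. DESeq2 called 3 higher, L3mbtl2 being the added gene, where it called 1241 of 16358 genes higher in all. L3mbtl2 did not pass in the main edgeR fit (log2 fold change 0.51, adjusted p = 0.0651). It passed with library totals in place of TMM scaling (adjusted p = 0.0414, edgeR) and with the stricter filter. Bcor (Entrez 71458, chromosome X, 12036737 to 12160516), the corepressor in the complex with Pcgf1, had 14.0, 11.7 and 12.8 CPM in knockout libraries, against 3.55, 7.43 and 5.72 CPM in wildtype libraries. It was 2.32-fold higher in knockout oocytes (log2 fold change 1.21, SE 0.26, adjusted p = 0.0270, edgeR). Dcaf7 (Entrez 71833, chromosome 11, 106036872 to 106059324), a WD40 protein in the complexes with Pcgf3 and Pcgf5, was 1.31-fold higher, at 246 ± 2.54 CPM in knockout and 187 ± 0.6 CPM in wildtype pools (SD, n = 3 each; adjusted p = 0.0461, edgeR). The call of Bcor held without wildtype replicate 1 or 2 (adjusted p = 0.000578 and 0.0219, edgeR) and was lost without wildtype replicate 3 (0.0627) or any 1 knockout library (0.0877 to 0.124). That of Dcaf7 held only without wildtype replicate 1 (0.000277), with 0.122 to 0.207 without any other single library, and was also lost with library totals in place of TMM scaling (0.0504) and with no filter (0.0761). Its exons share 96 bases with Gm11646 on the other strand.

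The 11 genes that act on the removal of Polycomb marks had 1 that fell, where 5.34% of all tested genes did. DESeq2 called 2 lower, Kdm6b being the other, where it called 1258 of 16358 genes lower in all. The gene that fell was Asxl3 (Entrez 211961, chromosome 18, 22344077 to 22530227), a partner of the H2A deubiquitinase Bap1. It had 4.51, 4.46 and 4.29 CPM in knockout libraries, against 10.2, 7.05 and 9.33 CPM in wildtype libraries (2.01-fold lower in knockout, SE of the log2 fold change 0.181, adjusted p = 0.0150, edgeR). The adjusted p was between 0.0791 and 0.0876 without any 1 knockout library and between 0.00141 and 0.0451 without any 1 wildtype library. Kdm6b, a demethylase of H3 lysine 27 named after its values were seen, had 33.8, 37.9 and 36.7 CPM in knockout libraries, against 158, 41.1 and 44.2 CPM in wildtype libraries. Its log2 fold change of -1.17 did not pass (adjusted p = 0.160, edgeR; 0.0484 with DESeq2). Wildtype replicate 1 was far above the rest, and without it Kdm6b was lower by a smaller margin that passed (log2 fold change -0.24, adjusted p = 0.0483, edgeR).

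**Figure D4:**
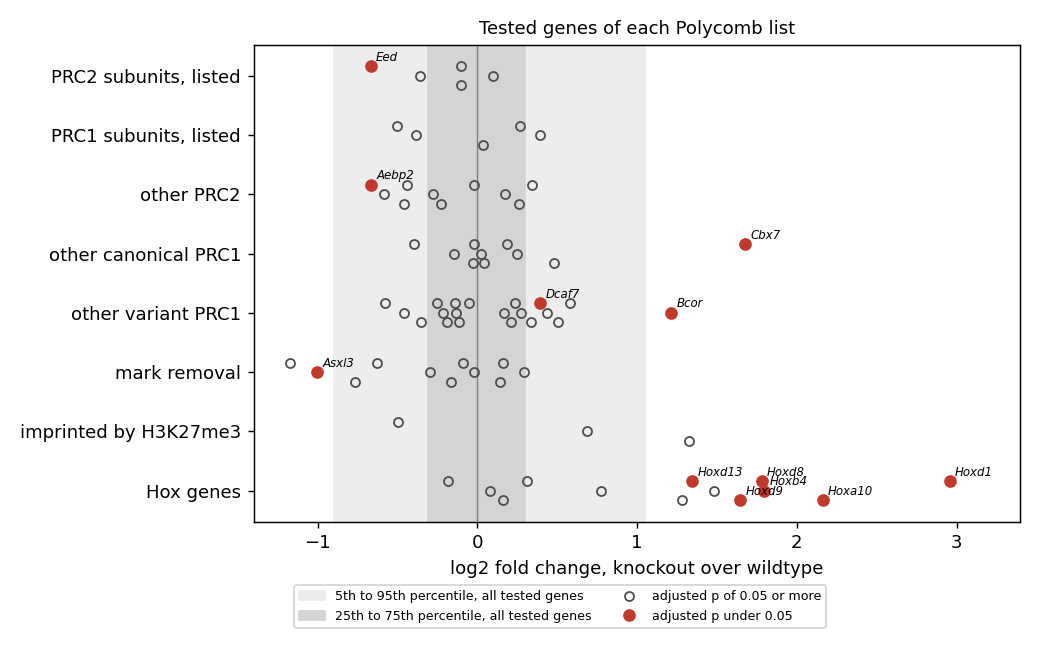
Fitted log2 fold change, knockout over wildtype (horizontal axis), of the tested genes of each Polycomb list; filled red points have an adjusted p under 0.05 and carry their names, and the bands span the middle of all tested genes. Most genes of the Polycomb lists lie within the 5th to 95th percentile of all tested genes, -0.89 to 1.05, while among the called genes Asxl3 lies below it and Cbx7, Bcor and the 6 named Hox genes lie above it; a few genes that did not pass also lie outside it.

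Genes that Polycomb complexes are known to hold silent were read from the same fit. Of the 38 Hox genes examined, developmental regulators that are textbook Polycomb targets, 13 had enough counts to test and 25 did not, 4 of them at 0 in every library. Among the 13 tested, 6 rose in knockout oocytes and 0 fell, where 5.87% of all tested genes rose, and 7.89% of the 6574 that averaged under 10 CPM. To be tested a gene had to reach 0.28 CPM in 3 of the 6 libraries. Of the 13, 6 reached it in all 3 wildtype libraries, and 5 of these rose; the other 7, of which 1 rose (Hoxb4), reached it in only 1 or 2 wildtype libraries and so needed the knockout libraries to be tested. The median log2 fold change depended on this filter: it was 1.35 over the 13 and 0.55 over 34 Hox genes with no filter. Each Hox gene that was not tested lay under 1 CPM in every library. Among these, Hoxb3 was lower in every knockout library than in every wildtype library, while Hoxb6, Hoxb13 and Hoxc10 were higher. All 4 had 26 reads or fewer per library. Hoxc10 had 3, 4 and 4 reads in knockout libraries, against 2, 1 and 1 reads in wildtype libraries. Hoxb3 had 4, 4 and 3 reads against 26, 8 and 4, so its genotypes were apart only after scaling. The share of all untested genes without overlap was not computed, so nothing is read from these 4.

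Hoxd1 (Entrez 15429, chromosome 2, 74762980 to 74765142), whose promoter window is printed above, had 3.36, 2.19 and 2.52 CPM in knockout libraries, from 114, 82 and 95 reads, against 0.384, 0.308 and 0.32 CPM in wildtype libraries, from 16, 8 and 7 reads. It was 7.76-fold higher in knockout oocytes (log2 fold change 2.96, SE 0.286, adjusted p = 0.00156, edgeR). Hoxa10 (Entrez 15395, chromosome 6, 52231197 to 52240854) had 1.92, 1.60 and 1.80 CPM in knockout libraries, against 0.384, 0.347 and 0.457 CPM in wildtype libraries (log2 fold change 2.16, adjusted p = 0.00342, edgeR). Hoxd13 (Entrez 15433, chromosome 2, 74668225 to 74671603) had 7.66, 9.003 and 11.1 CPM in knockout libraries, against 3.70, 3.16 and 4.07 CPM in wildtype libraries (log2 fold change 1.35, adjusted p = 0.00701, edgeR).

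The others were Hoxb4 (log2 fold change 1.80), Hoxd8 (1.78) and Hoxd9 (1.64), with adjusted p between 0.0186 and 0.0307 (edgeR). In all 6 every knockout library lay above every wildtype library. Over the 13 tested Hox genes this held for 8, where 40.2% of all tested genes had no overlap in either direction. Of these 8, Hoxa13, Hoxb4 and Hoxc13 reached 0.28 CPM in only 1 or 2 wildtype libraries. They needed the knockout libraries to be tested, so the 8 cannot be weighed against that share. Of the 6 that rose, 4 belong to the Hoxd cluster on chromosome 2, as do Hoxd10 and Hoxd12, which were tested and did not pass. Hoxa7, named after its values were seen, overlapped between genotypes, with 27.3, 32.5 and 29.5 CPM in knockout libraries, against 33.6, 17.5 and 20.7 CPM in wildtype libraries (adjusted p = 0.419, edgeR). The overlap came from wildtype replicate 1, the highest, and without it the log2 fold change of Hoxa7 was 0.64 (adjusted p = 0.00127, edgeR). With wildtype replicate 1 left out 8 of 13 tested Hox genes rose, where 16.7% of all genes did in that fit. With wildtype replicate 2 or 3 left out, 5 of 13 or 5 of 14 did, against 473 of 15430 or 501 of 15394 genes in all. With knockout replicate 1, 2 or 3 left out, 4, 3 or 3 of 14 did. Over all genes, 228 of 15328, 216 of 15191 and 249 of 15148 rose in these fits. Hoxd1, Hoxa10 and Hoxd13 were among the Hox genes that rose every time. Since the strand setting is not given, reads of antisense transcripts in these clusters cannot be told apart.

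**Figure D5:**
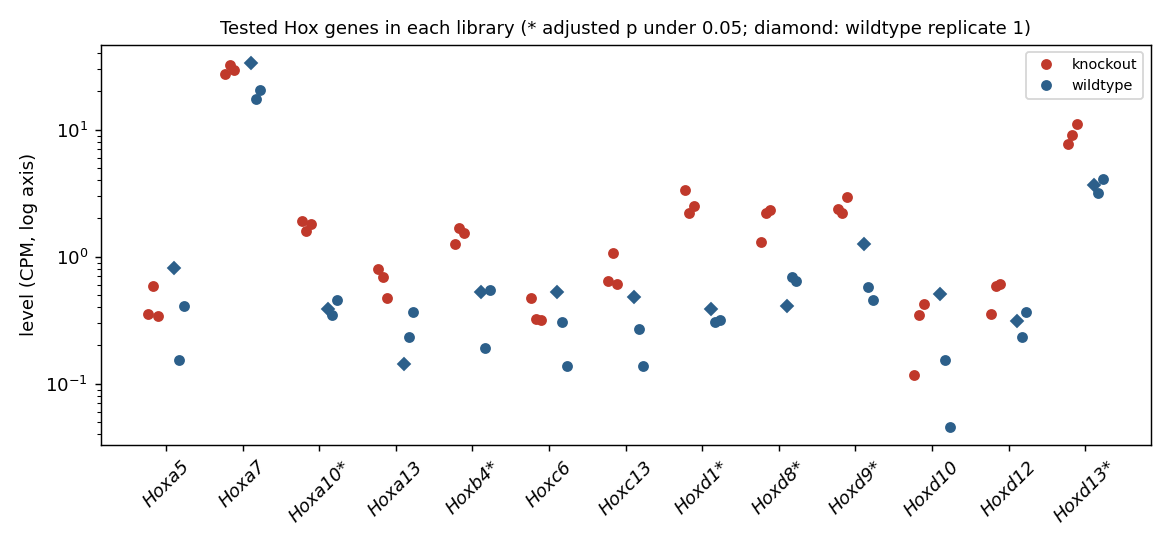
Level in CPM (log axis) of the 13 Hox genes with enough counts to test, in each knockout and wildtype library; the diamond is wildtype replicate 1, and asterisks mark an adjusted p under 0.05. For the 6 marked genes all knockout libraries lie above all wildtype libraries, and levels apart from those of Hoxa7 and Hoxd13 are low, at 3.36 CPM or less.

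The genes imprinted through maternal H3 lysine 27 methylation (Gab1, Sfmbt2, Slc38a4, Jade1, Smoc1 and Xist) were scarce in both genotypes. Of the 6, 3 could be tested, and 0 of these passed (edgeR, 0 with an unadjusted p under 0.05). Slc38a4 and Jade1 reached the 0.28 CPM of the filter in only 1 wildtype library each. DESeq2 tested 5 of the 6, with 0 called and 1 at an unadjusted p under 0.05. Gab1, a signalling adaptor, had 1.98 ± 0.545 CPM in knockout and 2.82 ± 0.602 CPM in wildtype pools (SD, n = 3 each; log2 fold change -0.50, adjusted p = 0.279, edgeR). Slc38a4, an amino acid transporter, had 10, 18 and 13 reads in knockout libraries, against 6, 0 and 7 reads in wildtype libraries (adjusted p = 0.261, edgeR). Sfmbt2, Smoc1 and Xist were under 1 CPM in every library and were not tested with edgeR. Sfmbt2 had 15, 7 and 25 reads in knockout libraries, against 7, 3 and 2 reads in wildtype libraries. In CPM its genotypes did not overlap, while those of Smoc1 and Xist did.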

How the data were processed

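Per the labels' protocols, RNA from about 10 pooled oocytes per library was extracted with PicoPure, amplified as cDNA with the SMARTer Ultra Low Input kit, made into libraries with NexteraXT and sequenced single-end. Per the submitters' processing notes, STAR 2.7.11a, featureCounts 2.0.3 and the builds GRCm38.p6 and mm10 were used; no source used here gives the annotation, the strand setting or the treatment of multiply mapped reads. The authors deposited whole-number counts per Entrez gene for each library. Of 27179 identifiers 25275 were named from RefSeq (GRCm38.p6). No molecular identifiers are described.

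Genes were filtered with filterByExpr (minimum count 10), scaled by TMM and tested with the quasi-likelihood F test of edgeR 4.0.16 in R 4.3.3 over 14957 genes, with Benjamini-Hochberg adjustment and a threshold of 0.05; the procedure was tested on simulated data. Standard errors are the absolute log2 fold change over the square root of F, and 95% intervals use the moderated degrees of freedom. CPM are TMM-scaled, with mean ± SD. Exon lengths, merged per gene, and overlaps came from GENCODE M21. The alternatives were other scalings and filters, DESeq2 1.42.0, limma-voom (limma 3.58.1), the replicate number as a block and each library left out. Members, lists and tests were chosen with earlier results of these data known. Named genes were the 10 subunits, Prdm10, called list members (at most 6 per list, by smallest p, or the 2 smallest p where none was called) and the 5 genes most like Eed; others were named after their values were seen. The labels call the replicates biological and do not tie each to its own animal; p-values speak only for the variation among these samples, which may be technical. Of the Hox list, 1 gene is not reported here. No 2 libraries of the same genotype differed by as little as sampling noise. Pairs across genotypes were not compared in this way.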

Additional observations from a re-analysis of the deposited data

How the results depend on the processing

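The log2 fold change of Eed was below 0 under every alternative. Eed did not pass with the replicate number as a block (adjusted p = 0.0639, edgeR) or without any 1 library other than wildtype replicate 1. The labels do not say whether the replicate numbers pair the libraries. Deviations of same-numbered libraries from their group means correlated at -0.06, 0.01 and -0.09, which cannot settle it with 3 libraries of each genotype. With that block 537 genes passed over all tested genes, 0 of the PRC2 and 0 of the PRC1 subunits, 1 of the other Polycomb genes and 4 of the Polycomb-repressed genes, where the unblocked fit had 1676, 1, 0, 5 and 6. Cbx7 was the other Polycomb gene that passed, while Aebp2, Bcor, Dcaf7 and Asxl3 did not. Among the Hox genes, Hoxb4 and Hoxd9 no longer passed. The stricter filter (5 CPM in 3 libraries) left 1038 of 9917 genes called and 1 Polycomb-repressed gene of 2 tested, the filter itself removing the other Hox genes. DESeq2 called 8 of 51 other Polycomb genes and 2499 of 16358 genes in all. Leaving out 1 library in turn gave 357 to 5199 genes called in all, 0 to 3 PRC2 subunits, 0 to 2 PRC1 subunits, 1 to 16 other Polycomb genes and 3 to 8 Polycomb-repressed genes, the highest each time without wildtype replicate 1; the cause was not tested. Over the same fits the log2 fold change of Ezh1 ran from -0.31 without wildtype replicate 1 to 0.017 without wildtype replicate 2, and that of Rnf2 from -0.23 without wildtype replicate 1 to 0.23 without wildtype replicate 3, so both changed sign. DESeq2 size factors, library totals, no filter and limma-voom changed the call of none of the 10 subunits, and other gene lengths moved the genotype difference in the paralog shares by less than the SD. Depth limits Ring1, at 7 to 18 reads per library, and most Hox genes.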
